A study of Mus musculus with 20 samples.

Results

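The genes described here are 52 genes of DNA repair and damage signalling, chosen by symbol from the 51789 gene rows of the deposited table for strand break, base, nucleotide and mismatch repair and for the damage kinases. Each of the 52 symbols matched a single row, and all 52 genes are protein-coding. They fall by role into 12 genes that sense or signal damage, 6 of homologous recombination, 7 of end joining, 11 of base excision and single-strand break repair, 10 of nucleotide excision repair, 3 of mismatch repair, 2 of crosslink repair and Mgmt, which reverses alkylation directly. RNA was measured in intervertebral disc of BL6 mice aged 24 months, in the gelatinous core, or nucleus pulposus (NP), and in the surrounding fibrous ring, or annulus fibrosus (AF), each dissected under a microscope. From 18 months of age the mice had intraperitoneal injections each week for 6 months, of DMSO alone (vehicle) or of MDL-800 in the same amount of DMSO. By the series title this compound stands for activation of SIRT6, an NAD-dependent enzyme that deacylates histones and has itself been linked to DNA repair. The 20 libraries formed 4 groups of 5, from vehicle and MDL-800 mice in each of NP and AF, and all 4 groups had thus received DMSO. Libraries are called by the number in their sample title. The labels give no sex and do not say that the 5 libraries of a group came from separate mice, so p-values measure the spread between these libraries.

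DNA is damaged constantly by oxidation, by replication and by agents from outside, and each kind of lesion has its own repair pathway. The kinases ATM and ATR detect broken or single-stranded DNA and pass the signal to CHEK1 and CHEK2, which halt the cell cycle. Homologous recombination copies the intact sister chromatid and works mainly in cells that replicate DNA, whereas end joining rejoins breaks at any time. Disc cells of the adult divide rarely, and accumulated DNA damage is among the processes linked to disc ageing.

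FPKM values (fragments per kilobase of transcript and per unit of mapped library) were scaled with a factor per library and are given as scaled FPKM. Differences were tested on log2(scaled FPKM + 1) with limma across the 16383 genes that reached 1 FPKM in at least 5 libraries, and all 52 repair genes were among them. A gene is called higher or lower where the Benjamini-Hochberg adjusted p from limma was under 0.05. Differences on this scale understate the change of low genes. The depth, estimated from the steps of low values, ran from 12.8 to 21.8 megareads per library. Each of the 7 tested NP markers (of 8 listed, Tbxt being absent under that symbol) was called higher in NP vehicle than in AF vehicle, and 6 of 7 AF markers were called lower. No marker of NP, AF or a neighbouring cell type was called between treatments in either tissue. For 3 of the NP markers, Krt8, Krt19 and T, every NP MDL-800 library still lay above every NP vehicle library. The share of all genes with that pattern is not given here, so the count cannot be set against it.

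The largest differences among the repair genes lay between the tissues. In vehicle-treated mice 24 of the 52 genes were called, 5 higher and 19 lower in NP, beside 55.7% of all tested genes (21.8% higher and 33.9% lower). The share of repair genes called in this comparison was 46.2%. The median difference of the 52 genes was -0.18 on the log2 scale, against -0.08 over all tested genes. H2afx, Brca1, Lig1, Fen1, Chek1, Chek2, Fancd2 and Ung were each lower in NP by more than 1 on the log2 scale. Ddb1, Atr, Xrcc4, Atm and Trp53bp1 were higher in NP. In the MDL-800 groups 30 of the 52 were called, 5 higher and 25 lower in NP, beside 62.8% of all tested genes (25.6% higher and 37.2% lower). Both comparisons called Atm, Atr and Ddb1 higher and the same 19 genes lower, and no gene was called in opposite directions. Over the alternative settings described below, the adjusted p of Atm with MDL-800 reached 0.143 (limma). The libraries of both tissues did not overlap for 17 repair genes below and 4 above in vehicle, beside 25.9% and 15.1% of all genes. With MDL-800 they did not overlap for 20 below and 4 above, beside 30.5% and 18.5%.

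The balance of higher and lower calls depended on the scaling. Quantile normalization moved the median difference of all genes by 0.27 and called 22 repair genes higher and 11 lower in NP vehicle against AF vehicle, beside 38.5% of all genes higher and 25.6% lower. With MDL-800 it called 19 higher and 13 lower, beside 41.5% and 27.7%. The 11 in vehicle were Chek1, Chek2, H2afx, Brca1, Wrn, Blm, Ung, Tdg, Fen1, Lig1 and Fancd2, all of which were also among the 19. Rad50, Rnf8, Palb2, Dclre1c, Parp2, Ercc3, Msh3 and Msh6 lost the call in vehicle. With MDL-800 it was lost for Mre11a, Rad50, Rnf8, Brca2, Nhej1, Dclre1c, Ung, Apex1, Ddb2, Ercc3, Msh3 and Pms2. No gene went from lower to higher in either comparison. The count of higher genes fell from 5 to 3 without NP vehicle library 1 or 2 or AF vehicle library 8 or 13, with Atm, Atr and Ddb1 remaining.

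**Figure D1:**
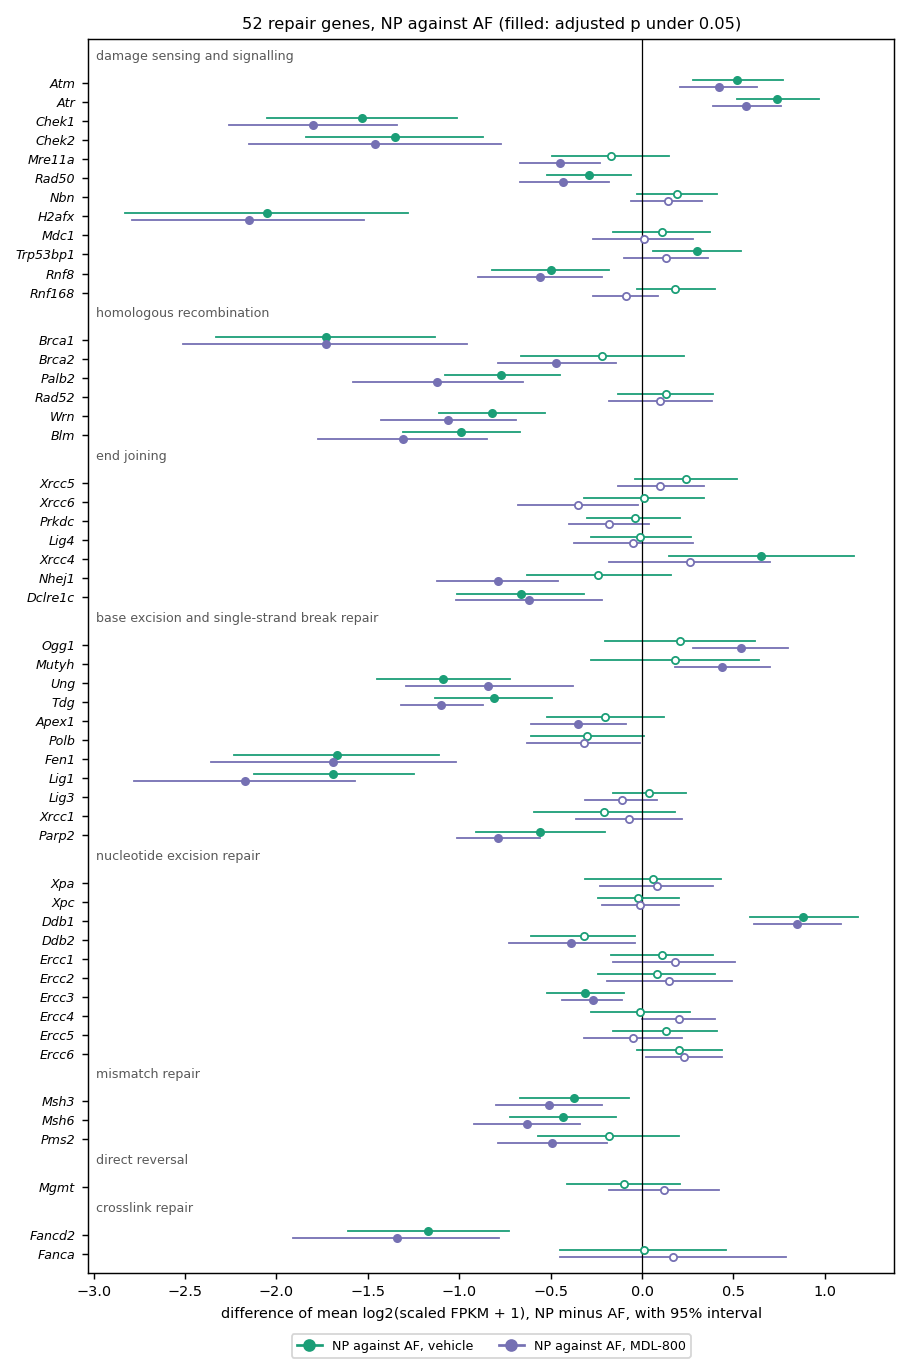
Difference of mean log2(scaled FPKM + 1) between NP and AF for the 52 repair genes by role, in vehicle (green) and MDL-800 (purple) groups of 5 libraries, with 95% intervals from limma; filled points have an adjusted p under 0.05. H2afx, Brca1, Lig1, Fen1, Chek1, Chek2, Fancd2 and Ung lie to the left of -1 in vehicle, and Atm, Atr and Ddb1 lie to the right in both comparisons.

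Upstream sequences of 4 genes are shown because the genes differed between the tissues in opposite directions or share their upstream stretch with a gene that changed. Brca1 and Chek2 were lower in NP, Atr was higher, and Parp2 stands head to head with Rpph1. The 250 bases before each RefSeq start are given 5′ to 3′ on the gene's strand (RefSeq, GRCm38.p6). Of the 52 genes, 42 matched the RefSeq promoter table by symbol. Capitals mark matches, on either strand, to CCAAT (the letters bound by NF-Y), to TTTCCCGC (an E2F-type site) or to the octamer ATTTGCAT, and none of the marked matches overlap each other. On the opposite strand CCAAT reads ATTGG and the E2F-type letters read GCGGGAAA.
Brca1, chr11:101551956-101552205, minus strand: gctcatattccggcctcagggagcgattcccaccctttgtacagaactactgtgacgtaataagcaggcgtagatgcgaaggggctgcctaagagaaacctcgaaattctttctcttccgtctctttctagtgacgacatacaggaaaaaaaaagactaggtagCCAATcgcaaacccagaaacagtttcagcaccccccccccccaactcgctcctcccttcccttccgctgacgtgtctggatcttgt
Chek2, chr5:110839733-110839982, plus strand: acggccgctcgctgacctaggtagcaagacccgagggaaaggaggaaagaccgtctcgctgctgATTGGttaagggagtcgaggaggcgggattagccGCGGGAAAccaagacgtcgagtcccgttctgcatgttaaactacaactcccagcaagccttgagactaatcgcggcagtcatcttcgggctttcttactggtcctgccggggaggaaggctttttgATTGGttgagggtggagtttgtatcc
Atr, chr9:95857347-95857596, plus strand: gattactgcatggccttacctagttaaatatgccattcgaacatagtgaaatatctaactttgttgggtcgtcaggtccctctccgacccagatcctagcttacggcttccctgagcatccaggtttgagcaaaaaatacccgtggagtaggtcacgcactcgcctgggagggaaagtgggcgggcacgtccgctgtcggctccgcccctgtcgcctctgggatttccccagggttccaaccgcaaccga
Parp2, chr14:50807666-50807915, plus strand: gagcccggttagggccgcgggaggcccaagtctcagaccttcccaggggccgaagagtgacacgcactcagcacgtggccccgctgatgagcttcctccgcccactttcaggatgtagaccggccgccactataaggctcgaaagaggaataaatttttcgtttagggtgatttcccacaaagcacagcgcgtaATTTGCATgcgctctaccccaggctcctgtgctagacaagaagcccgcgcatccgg
The Brca1 stretch holds a CCAAT match that begins 86 bases before the start. The Chek2 stretch holds CCAAT matches on the opposite strand 186 and 26 bases before the start and the E2F-type letters 152 bases before it. No match was found in the Atr stretch. Over the 42 genes, CCAAT was found in 21 (50.0%), against 34.5% of all 27025 promoters in the table. That wider set was not limited to genes tested here, whereas all 42 were tested, so the shares have unlike bases. The E2F-type letters were found in 4 (Brca2, Chek2, Mdc1 and Xrcc6; 9.52%), against 0.929% of all. Of those 4 genes, Chek2 was called lower in NP in both comparisons, Brca2 in the MDL-800 comparison, and Mdc1 and Xrcc6 in neither. The matches are descriptions of letters and say nothing on binding.

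Among the 12 genes that sense and signal damage, 3 were higher and 5 lower in NP vehicle. This count and those of the other roles below stand beside 21.8% of all tested genes higher and 33.9% lower. Atr (ENSMUSG00000032409, chromosome 9, 95857597 to 95951781, GRCm38), the kinase that responds to stalled replication forks, read 12.8, 15.3, 14.2, 13.7 and 12.3 scaled FPKM in NP vehicle. It read 7.06, 7.29, 8.27, 9.02 and 7.25 in AF vehicle. The lowest NP library lay above the highest AF library, and the difference was 0.74 on the log2 scale (SE 0.10, adjusted p = 0.000141, limma). Atm, the kinase of broken ends, read 10.8 ± 1.54 scaled FPKM (SD, n = 5) in NP vehicle and 7.19 ± 0.533 (SD, n = 5) in AF vehicle. The difference was 0.52 (SE 0.11, adjusted p = 0.00229, limma), and the groups did not overlap. Trp53bp1, which steers breaks toward end joining, differed by 0.30 with overlapping groups. Exons of Tubgcp4 on the opposite strand cover 15.0% of the exonic bases of Trp53bp1, so its level is uncertain. The effector kinases of ATM and ATR went the other way. Chek2 read 2.03, 3.41, 1.83, 2.50 and 5.47 scaled FPKM in NP vehicle and 9.35, 9.61, 7.44, 7.62 and 10.6 in AF vehicle. Every NP library was below every AF library, and the difference was -1.35 (SE 0.22, adjusted p = 0.000396, limma). Chek1, the kinase that acts with ATR, differed by -1.53 (adjusted p = 0.000277, limma), from 1.25 ± 0.524 scaled FPKM (SD, n = 5) in NP vehicle to 5.62 ± 2.07 (SD, n = 5) in AF vehicle.

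H2afx (ENSMUSG00000049932, chromosome 9, 44334694 to 44336077), the histone variant phosphorylated around breaks, had the largest fall of the 52 from AF vehicle to NP vehicle on the log2(scaled FPKM + 1) scale. It read 4.58, 2.43, 4.21, 5.04 and 9.80 scaled FPKM in NP vehicle and 35.9, 26.6, 20.5, 10.4 and 31.0 in AF vehicle. The closest libraries were NP vehicle 6 and AF vehicle 12, and the difference was -2.05 (SE 0.35, adjusted p = 0.000575, limma). Rnf8, a ubiquitin ligase recruited to broken chromatin, was lower by 0.50 and Rad50, of the MRE11 complex that tethers ends, by 0.29 on the log2 scale. Another gene on the same strand, Gm28043, shares 13.2% of the exonic bases of Rnf8, so its level is uncertain. The other members of that complex were not called in vehicle: Mre11a differed by -0.17 and Nbn by 0.19. Mdc1, which binds the phosphorylated histone, and Rnf168, the ligase downstream of Rnf8, differed by 0.11 and 0.18 and were not called.

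**Figure D2:**
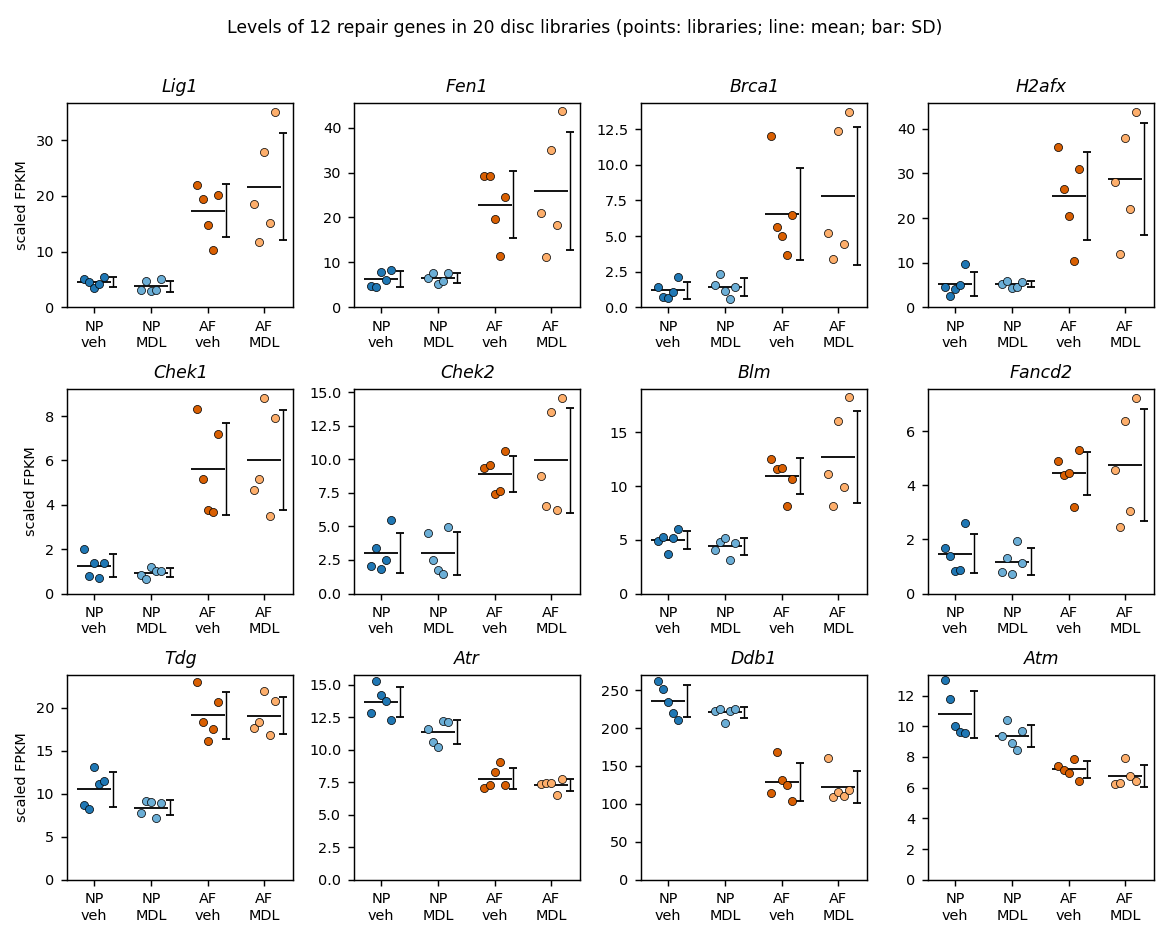
Scaled FPKM of 12 repair genes in the 20 libraries; points are libraries, lines group means and bars SD (n = 5 per group), and each axis starts at 0. Lig1, Fen1, Brca1, H2afx, Chek1, Chek2, Blm, Fancd2 and Tdg were lower in NP than in AF, Atr, Ddb1 and Atm were higher, and the treatment groups of a tissue overlapped for all but Atr in NP.

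Homologous recombination had 4 of 6 genes lower in NP vehicle and none higher. Brca1 (ENSMUSG00000017146, chromosome 11, 101488764 to 101551955) read 1.40, 0.743, 0.647, 1.08 and 2.12 scaled FPKM in NP vehicle. In the AF vehicle libraries it read 12.0, 5.60, 5.01, 3.69 and 6.5. The AF value of 12.0 stood apart from the other 4, and the lowest AF library was still above the highest NP library. The difference was -1.73 (SE 0.27, adjusted p = 0.000313, limma). Palb2, which links BRCA1 to BRCA2, differed by -0.77, and the RecQ helicases Blm and Wrn by -0.99 and -0.82, each without overlap of the groups. Brca2, a mediator of recombination, was at 12.5 ± 3.72 and 14.4 ± 2.90 scaled FPKM (SD, n = 5), a difference of -0.22 that was not called. Rad52, a strand-annealing factor, differed by 0.13 and was not called.

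Of the 7 end joining genes 1 was higher and 1 lower in NP vehicle. Xrcc4, the scaffold of DNA ligase IV, was called higher in NP vehicle (0.65, SE 0.23, adjusted p = 0.0304, limma) with overlapping groups. Dclre1c, the nuclease Artemis, was called lower (-0.66, SE 0.16, adjusted p = 0.00388, limma). Xrcc5 and Xrcc6, the Ku subunits that cap ends, differed by 0.24 and 0.01. Prkdc, the kinase that joins Ku, differed by -0.04, and Lig4, the ligase itself, by -0.01. Nhej1, a partner of Xrcc4, differed by -0.24 in vehicle and was not called, but was called in the MDL-800 groups, at -0.79 (SE 0.15, adjusted p = 0.000886, limma). Over the alternative settings its adjusted p there reached 0.192 (limma), and quantile normalization lost the call.

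In base excision and single-strand break repair 5 of 11 genes were lower in NP vehicle and none was higher. Lig1 (ENSMUSG00000056394, chromosome 7, 13277283 to 13311433), the ligase that seals Okazaki fragments, read 5.16, 4.48, 3.39, 4.26 and 5.53 scaled FPKM in NP vehicle. In AF vehicle it read 21.9, 19.4, 14.7, 10.3 and 20.2. No NP library came near the AF range, and the difference was -1.69 (SE 0.20, adjusted p = 5.47e-05, limma). Fen1, the flap endonuclease of replication and repair, read 4.78, 4.57, 7.79, 6.07 and 8.31 in NP vehicle and 29.3, 29.3, 19.6, 11.5 and 24.5 in AF vehicle. It also showed no overlap, with a difference of -1.67 (SE 0.25, adjusted p = 0.000267, limma). An antisense gene, Gm10143, covers 78.8% of the exonic bases of Fen1, and whether the authors' counting used strand is not given in the sources used here. The uracil glycosylase Ung, the thymine glycosylase Tdg and the poly(ADP-ribose) polymerase Parp2 were lower by 1.09, 0.81 and 0.56 on the log2 scale. Tdg has a processed pseudogene, Tdg-ps, that is 98.7% identical over its match, so its level is uncertain.

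The genes of that pathway that act on oxidised guanine and in gap filling did not pass in vehicle. Ogg1, which removes oxidised guanine, differed by 0.21 and Mutyh, which removes adenine opposite it, by 0.18. In the MDL-800 groups both were called higher in NP, Ogg1 by 0.54 (SE 0.12, adjusted p = 0.00199, limma) and Mutyh by 0.44 (SE 0.12, adjusted p = 0.00749, limma). Over the alternative settings the adjusted p of Ogg1 in the MDL-800 groups reached 0.0731 (limma). Whether the tissue difference changed with treatment is the test of the difference of treatment effects, which called neither Ogg1 nor Mutyh. Apex1, the abasic-site nuclease, Polb, the gap-filling polymerase, and Lig3 with its partner Xrcc1 differed by -0.20, -0.30, 0.04 and -0.21 in vehicle, none of them called. Exons of Pip4p1 on the opposite strand cover 61.7% of Apex1, and exons of Rffl cover 25.1% of Lig3, which makes their levels uncertain too. Exons of Camk1 on the opposite strand cover 10.6% of Ogg1.

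Nucleotide excision repair had 1 gene higher and 1 lower of 10 in vehicle. Ddb1 (ENSMUSG00000024740, chromosome 19, 10605327 to 10629819), the adaptor of a cullin ubiquitin ligase that also recognises ultraviolet damage, was the most abundant of the 52 per length in every group. It read 262, 251, 234, 220 and 211 scaled FPKM in NP vehicle and 114, 169, 131, 125 and 104 in AF vehicle. All NP values exceeded all AF values, and the difference was 0.88 (SE 0.13, adjusted p = 0.000264, limma). Its partner Ddb2, the ultraviolet sensor, differed by -0.32 in vehicle without a call. Exons on the opposite strand cover 23.8% of Ddb2 (Acp2), and 24.6% (Gm26852) and 17.8% (Klc3) of Ercc2, so both levels are uncertain. The helicase Ercc3 was called lower in vehicle (-0.31, SE 0.10, adjusted p = 0.0173, limma). The other 7 genes (Xpa, Xpc, Ercc1, Ercc2, Ercc4, Ercc5 and Ercc6, which find lesions, open the helix and cut the strand) differed by -0.02 to 0.20 and were not called. Ercc6, which recruits repair to stalled transcription, gave that 0.20 with no overlap between the groups.

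Of the mismatch repair genes, Msh6 and Msh3, which recognise mismatches and loops, were lower by 0.43 and 0.37 on the log2 scale in NP vehicle, and Pms2, of the nicking enzyme, differed by -0.18 without a call. Fancd2, the clamp of crosslink repair, differed by -1.17 (SE 0.20, adjusted p = 0.000558, limma) and Fanca, of the core complex that modifies it, by 0.01. Mgmt, which removes alkyl groups from guanine, stood at 1.17 ± 0.180 scaled FPKM in NP vehicle and 1.35 ± 0.431 in AF vehicle (SD, n = 5) and was not called. Its direction between the tissues reversed with quantile normalization, where the difference was 0.33 instead of -0.10.

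The tissue differences stood beside differences in cell content. All 16 genes of a proliferation list (such as Mki67 and Top2a) were lower in NP than in AF in both treatments, with no overlap. Their summed level was 73.7 to 171 scaled FPKM in NP vehicle and 353 to 796 in AF vehicle. The median difference of the list was -2.70 on the log2 scale in vehicle. Every tested marker of red cells (7 genes, with Ahsp absent under that symbol), neutrophils (9), B and plasma cells (7), macrophages (6), bone (6), skeletal muscle (6), endothelium (5), fat (3) and nerve (4) was also called lower in NP vehicle, and none of these genes was at 0 in a whole group. The neutrophil list summed to 198 to 3020 scaled FPKM in NP vehicle and to 7020 to 18500 in AF vehicle, the red cell list to 32.9 to 155 and to 456 to 1480. The part of these cells in the tissue differences of repair genes was not tested. The NP marker list summed to 2490 to 15100 scaled FPKM in AF vehicle, highest in library 9. In AF MDL-800 it summed to 3640 to 7510, highest in library 25, and in NP vehicle to 25600 to 30800. In AF vehicle library 9, Krt8, Krt18, Krt19, T and Shh read 394, 110, 725, 624 and 3.04 scaled FPKM. The listed genes Car3 and Cd24a thus made up most of its sum, as they did in NP vehicle. In AF vehicle library 12, with a sum of 5850, the same 5 genes read 119, 28.6, 108, 209 and 1.40. Whether Car3 and Cd24a in AF came from NP cells was not tested. The part of this list in the tissue differences of repair genes was not tested either. In bulk RNA, fewer cells of a type and less RNA per cell cannot be told apart.

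Within AF, the level of many repair genes followed the proliferation list from library to library. Over the 10 AF libraries of both treatments, 16 repair genes correlated positively with the mean log2 level of the 16 proliferation genes and 1 negatively, at an adjusted p under 0.05 over all genes (permutation test). The background was 10.2% of genes positive and 4.34% negative. Lig1 had Pearson's r = 0.99 (adjusted permutation p = 0.00119, raw p = 1e-05, the smallest that 100000 permutations can give) and Spearman's rho = 0.98 (permutation p = 1e-05). Fen1 had r = 0.98 and rho = 0.98 (permutation p = 1e-05 and 3e-05). For H2afx both were 0.95 (permutation p = 1e-05 and 0.00011), and for Brca1 they were 0.93 and 0.98 (permutation p = 6e-05 and 2e-05). Without the 2 libraries farthest from the median, AF MDL-800 library 30 and AF vehicle library 12, r was 0.97 for Lig1, 0.97 for Fen1, 0.94 for H2afx and 0.90 for Brca1. The other 12 positive genes were Chek1, Chek2, Palb2, Wrn, Blm, Xrcc6, Ung, Xrcc1, Xpc, Msh6, Fancd2 and Fanca, of which Chek1 and Ung were closest to the threshold. Without those 2 libraries r dropped to 0.49 for Xrcc1, 0.63 for Xpc and 0.69 for Palb2, so these relations rest partly on them. Polb, the gap-filling polymerase, was the negative gene (r = -0.86, rho = -0.81, permutation p = 0.00094 and 0.00697, adjusted p = 0.0152), with r = -0.81 without those 2 libraries. Atr had r = -0.26 and rho = -0.22 (permutation p = 0.467 and 0.535, adjusted p = 0.666). In all, 104 such relations were computed, 52 in each tissue.

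The proliferation list itself correlated with several of the 11 marker lists. In AF its mean correlated with that of the red cell list (r = 0.95, rho = 0.85, permutation p = 0.00011 and 0.00301, adjusted p = 0.00121 over 22 relations; r = 0.89 without the 2 libraries). With the neutrophil list r was 0.87 and rho 0.85 (permutation p = 0.00147 and 0.00325, adjusted p = 0.00647, r = 0.75 without the 2 libraries). With the B and plasma cell list r was 0.76 and rho 0.78 (permutation p = 0.00891 and 0.0106, adjusted p = 0.0218, r = 0.88 without the 2 libraries). The skeletal muscle list went the other way, with r = -0.79 and rho = -0.75 (permutation p = 0.00772 and 0.0174, adjusted p = 0.0212, r = -0.65 without the 2 libraries). The macrophage list had r = -0.41 and rho = -0.42 (permutation p = 0.239 and 0.233, adjusted p = 0.375). In NP the red cell, neutrophil, B and plasma cell, macrophage and endothelium lists had r from 0.79 to 0.94 and rho from 0.67 to 0.90, with adjusted p from 0.00121 to 0.0212 (permutation) and r from 0.72 to 0.92 without 2 libraries. The part of these cells in the relations of repair genes was not tested. In the 10 NP libraries no repair gene correlated with the proliferation list at an adjusted p under 0.05, against 4.00% of all genes positive and 0.0245% negative. The median r of the 52 genes was 0.21 in NP and 0.49 in AF, and that of all genes 0.04 and 0.00. The strongest of the 6 plotted genes in NP was Brca1 (r = 0.79, rho = 0.72, permutation p = 0.00681 and 0.0235, adjusted p = 0.124). Its r was 0.80 without NP vehicle library 6 and NP MDL-800 library 22. The NP level of Brca1 was low (0.571 to 2.36 scaled FPKM), whereas Atr read 10.2 to 15.3 in NP. A difference in slope between the tissues was not tested.

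**Figure D3:**
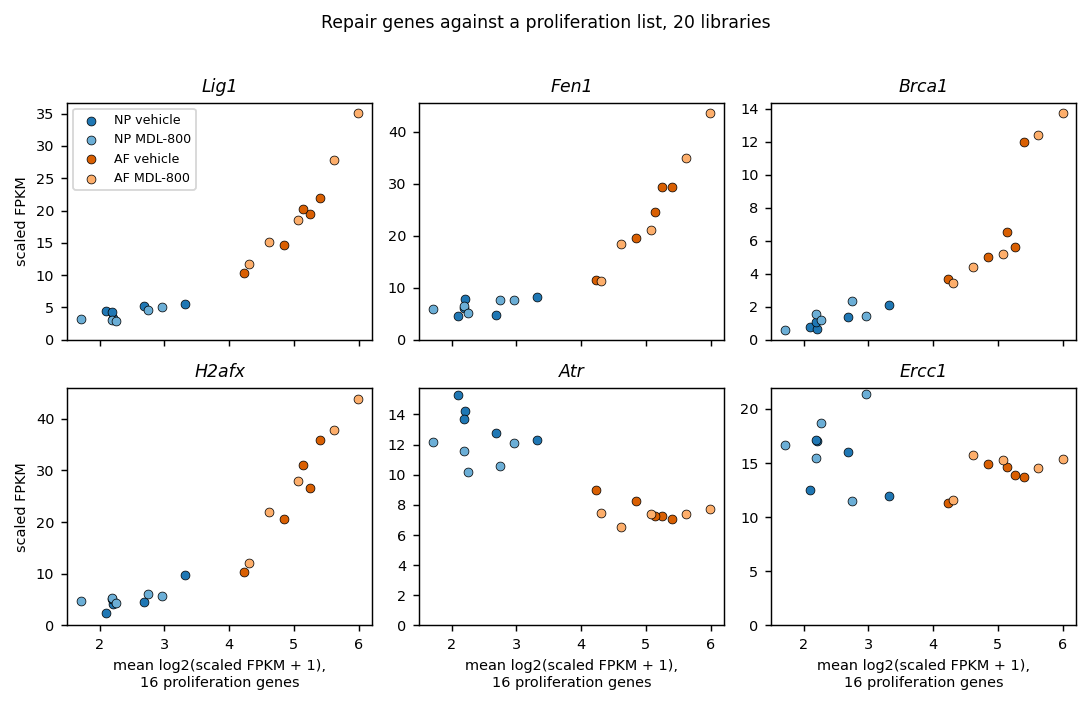
Scaled FPKM of 6 repair genes (vertical axes, from 0) against the mean log2(scaled FPKM + 1) of 16 proliferation genes, with a point for each of the 20 libraries coloured by group. Lig1, Fen1, Brca1 and H2afx climb with the list within AF (r from 0.93 to 0.99 over 10 libraries), while Atr (r = -0.26) does not, and Ercc1, a nuclease subunit, reads 11.5 to 21.4 in NP and 11.3 to 15.7 in AF.

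The question of the series is what long treatment with MDL-800 changes, and no repair gene was called in NP. Of the 52 genes 0 had an adjusted p under 0.05 in NP MDL-800 against NP vehicle by limma, beside 0.250% of all genes, and the smallest adjusted p was 0.139. At an unadjusted p under 0.05, 1 repair gene was higher and 5 were lower, beside 9.11% of all genes higher and 4.99% lower. The 95% intervals of all 52 differences lay within 1 on the log2 scale, and 33 lay within 0.5. The median difference was -0.09, against -0.03 over all genes.

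Fanca (ENSMUSG00000032815), of the core complex of crosslink repair, had the smallest p in NP. It read 5.51, 5.86, 6.93, 7.21 and 6.94 scaled FPKM in NP vehicle and 9.16, 10.1, 6.68, 11.7 and 12.2 in NP MDL-800. Library 19 of NP MDL-800 lay inside the vehicle range and the other 4 above it. The difference was 0.53 (SE 0.15, unadjusted p = 0.00476, adjusted p = 0.139, limma). In AF the difference of Fanca was 0.37 with an interval of -0.33 to 1.07.

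Atr and Rnf168 were the repair genes whose NP groups did not overlap, both with MDL-800 below vehicle, beside 1.00% of all genes. Atr read 11.6, 10.6, 10.2, 12.2 and 12.1 scaled FPKM in NP MDL-800, below the lowest vehicle value of 12.3. Its difference was -0.25 with an interval of -0.43 to -0.06 (unadjusted p = 0.0135, adjusted p = 0.212, limma). Rnf168 read 12.4, 11.9, 15.6, 12.5 and 11.6 in NP vehicle and 11.2, 10.9, 10.3, 10.8 and 9.90 in NP MDL-800, a difference of -0.24 (adjusted p = 0.244, limma). Nhej1 differed by -0.38, Palb2 by -0.25 and Xrcc6 by -0.21, all with overlapping groups and adjusted p of 0.331, 0.349 and 0.352 (limma).

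**Figure D4:**
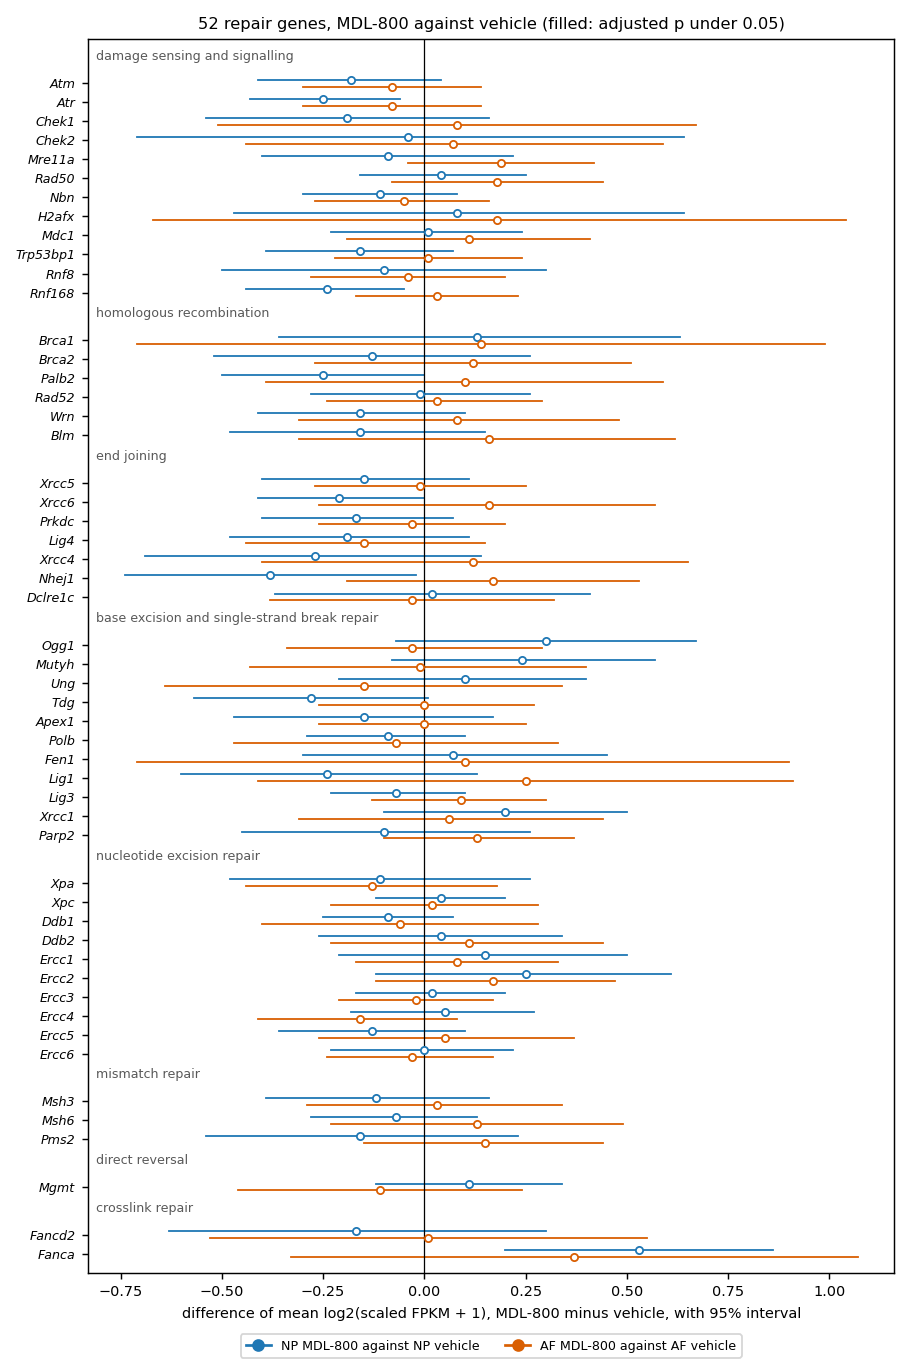
Difference of mean log2(scaled FPKM + 1) between MDL-800 and vehicle for the 52 repair genes by role, in NP (blue) and AF (orange), 5 libraries per group, with 95% intervals from limma. No point is filled, since no gene had an adjusted p under 0.05; Fanca in NP (0.53) lies farthest from 0.

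These NP differences moved with the base composition of the transcripts. A slope on GC content was taken for each library, on its log2 deviations from the mean of all 20 libraries, and is thus relative. It was -0.28 to -0.01 per 10 percentage points in the 5 NP vehicle libraries. In the 5 NP MDL-800 libraries it was 0.02 to 0.09, with no overlap. The exact two-sided permutation test gave p = 0.0079, the smallest it allows for 5 against 5. Libraries 1 and 2 of NP vehicle both stood at -0.28. In AF the slopes overlapped (exact permutation p = 0.5). Across the 52 repair genes the NP difference correlated with GC content (r = 0.55, rho = 0.53, a description across genes, which are not independent replicates), and across all genes r was 0.37. The 18 repair genes at 50% GC or more had a median difference of 0.06, with 12 above 0, and the 34 below it had a median of -0.12, with 28 below 0. After the GC trend of each library was removed, Atr differed by -0.08, Rnf168 by -0.15, Fanca by 0.43 and Nhej1 by -0.42, and 0 genes were called. H2afx reversed, from 0.08 to -0.17. The part of base composition in the NP differences was not tested beyond this fit.

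**Figure D5:**
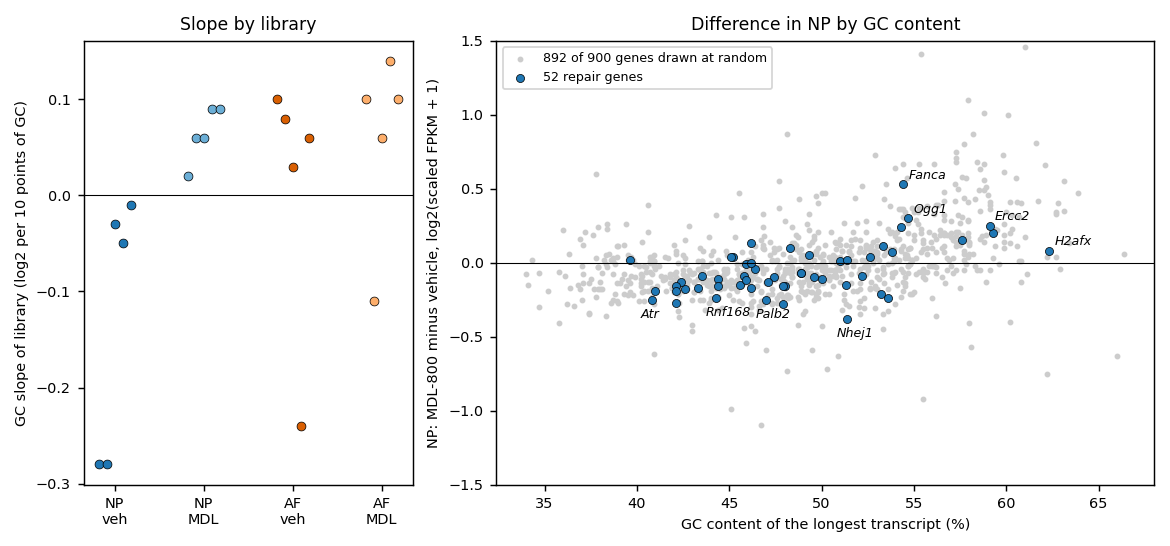
Left, slope on GC content of each library's log2 deviations from the mean of all 20 libraries (log2 units per 10 percentage points, 5 points per group). Right, difference between NP MDL-800 and NP vehicle on the log2 scale against the GC content of the longest transcript, for the 52 repair genes (blue) and for the 892 of 900 other genes drawn at random that lie within the axis (grey); genes of low GC content lie mostly below 0 and Fanca, Ogg1 and Ercc2 above it.

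In AF none of the 52 genes was called with MDL-800 (limma, adjusted p), and none reached an unadjusted p under 0.05. Beside them 0% of all genes were called and 1.65% had an unadjusted p under 0.05. The smallest p was that of Mre11a, the nuclease of the end-tethering complex, with a difference of 0.19 (unadjusted p = 0.0965, adjusted p = 1, limma). The other genes of lowest p were Rad50 (0.18), Ercc4 (-0.16), Ercc2 (0.17), Parp2 (0.13) and Fanca (0.37). The 95% intervals of 50 genes lay within 1 on the log2 scale, and those of H2afx (-0.67 to 1.04) and Fanca (-0.33 to 1.07) did not. Spread was wide for the genes that followed the proliferation list: Lig1 read 18.5, 11.7, 27.8, 15.1 and 35.1 scaled FPKM in AF MDL-800. The proliferation list summed to 369 to 1220 scaled FPKM in those libraries. The difference of Lig1 was 0.25 with an interval of -0.41 to 0.91.

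The difference between the treatment effects in NP and AF was not called for any of the 52 genes (limma on all 4 groups), beside 0% of all genes. At an unadjusted p under 0.05 it was lower in NP for 2 genes, Nhej1 and Rnf168, beside 1.61% of all genes lower and 2.12% higher. Their differences of effect were -0.55 and -0.27, each with an adjusted p of 1 (limma). Nhej1 read 2.68, 1.69, 2.39, 1.67 and 2.24 scaled FPKM in NP vehicle and 0.806, 0.989, 1.65, 1.80 and 1.92 in NP MDL-800. The AF MDL-800 libraries read 3.48, 2.96, 3.22, 2.82 and 3.21, and the AF vehicle libraries 2.66, 2.27, 2.16, 2.15 and 4.54. The NP values with MDL-800 lay partly below the vehicle range, and the AF values lay within the vehicle range, which library 13 of AF vehicle widens. The lowest library of Nhej1 rests on about 14 fragments and its median library on about 40, the fewest of the 52 if the longest transcript is taken for each. The other differences of effect with the lowest p were Xrcc6 (-0.36), Mre11a (-0.28), Tdg (-0.28) and Ogg1 (0.33), and intervals of 48 of the 52 genes lay within 1 on the log2 scale.

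Parp2 was looked at beside its neighbour, a choice made after the values were seen. Rpph1 (ENSMUSG00000092837), the RNA of ribonuclease P, starts 73 bases from Parp2 on the opposite strand in GENCODE M21 and 148 bases from the RefSeq start, so that 102 bases of the Parp2 stretch printed above belong to Rpph1. The octamer there begins 56 bases before the RefSeq start of Parp2 and lies between that start and the 5′ end of Rpph1 in GENCODE. It was found in 1 of 42 repair gene promoters (2.38%) and 1.61% of all. The GENCODE start of Parp2, at 50807841, lies inside the printed stretch and before the octamer. Rpph1 read 123, 95, 181, 452 and 306 scaled FPKM in NP vehicle and 817, 1430, 3090, 2400 and 1620 in NP MDL-800. Every treated library was above every vehicle library, and the difference was 3.10 (SE 0.46, adjusted p = 0.036, limma), a call lost in 7 of 10 fits without a library. Parp2 read 9.70, 8.70, 4.90, 7.84 and 8.93 in NP vehicle and 7.43, 7.71, 7.12, 6.00 and 8.23 in NP MDL-800. Its groups overlapped, and the difference was -0.10 with an interval of -0.45 to 0.26 (adjusted p = 0.841, limma).

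Head-to-head neighbours were common among these genes. Of the 52, 19 (36.5%) have the 5′ end of another gene on the opposite strand within 1000 bases in GENCODE M21, against 13.3% of the 13703 tested protein-coding genes. Nbr1, an autophagy receptor, starts 193 bases from Brca1. It was higher in NP vehicle than in AF vehicle, by 0.79 (adjusted p = 0.000353, limma), where Brca1 was lower by 1.73 on the log2 scale. Npat, a histone gene regulator 306 bases from Atm, was higher in NP by 0.35 (adjusted p = 0.0102, limma), as was Atm by 0.52. These neighbours too were picked after their values were seen.

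A wider list of repair genes was examined alongside, with 104 of 108 listed genes in the table and tested (Shld1, Shld2, Shld3 and Paxx were absent under those symbols). In vehicle 9 were higher and 45 lower in NP, or 8.65% and 43.3%, beside the 21.8% and 33.9% of all genes given above. The median difference of this list was -0.27. On the log2(scaled FPKM + 1) scale, which understates low genes, the largest rises from AF to NP were the glycosylase Neil2 (1.21), the translesion polymerase Poli (0.99) and the nuclease Fan1 (0.95). The largest falls were the glycosylase Neil3 (-1.99), the checkpoint adaptor Clspn (-1.92) and the exonuclease Exo1 (-1.89). In the MDL-800 groups 12 were higher and 52 lower, or 11.5% and 50%, beside 25.6% and 37.2% of all genes. With quantile normalization the vehicle counts were 29 higher and 28 lower, beside 38.5% and 25.6% of all genes. With MDL-800 in NP, 1 of the 104 genes (0.962%) was called by limma, beside 0.250% of all genes. At an unadjusted p under 0.05, 10 were higher and 6 lower, beside 9.11% and 4.99% of all genes. In AF 0 were called and 0 had an unadjusted p under 0.05 by limma, beside 0% and 1.65% of all genes. The gene called in NP was Rad23b, a partner of XPC in lesion recognition. Rad23b read 41.3, 46.9, 39.2, 50.2 and 60.1 scaled FPKM in NP vehicle and 72.0, 83.7, 72.3, 71.7 and 75.1 in NP MDL-800. The groups did not overlap, and the difference was 0.66 (SE 0.11, adjusted p = 0.0426, limma). The call was lost in 9 of 10 fits without a library, with adjusted p from 0.0151 to 0.133 over all alternatives, and XPC itself (Xpc) differed by 0.04.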

How the data were processed

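Stranded total RNA libraries after ribosomal depletion were made from 50 ng of RNA with 14 PCR cycles, per the labels' protocols. The authors deposited FPKM values per gene and library, rounded to 2 decimals. STAR 2.7.11b and mm10 are named in the submitters' processing notes without a role, and the counting program and its strand setting are not given in the sources used here. The table holds no counts, so limma 3.58.1 (R 4.3.3, eBayes with trend, two-sided) was run on log2(scaled FPKM + 1) with only the compared groups in the fit. The difference of treatment effects used all 4 groups. Factors were median ratios over 11308 genes (0.933 to 1.06), and a gene was kept where 5 or more libraries reached 1 FPKM. Alternatives were no scaling, quantile normalization, pseudocounts 0.1 and 3, other filters, a joint fit, a GC correction and leaving out each library. Scripts were tested on simulated data with 200 changed genes. A log2 change of 0.5 was called for 29% of them in NP with treatment, 1% in AF and 0.5% between tissues in vehicle. A change of 1 was called for 77%, 64.5% and 65%, with 18, 4 and 14 false calls. For the difference of treatment effects the shares were 4.5% and 54%.

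Depth was fitted from low values of 6641 single-exon genes with the length offset (170 to 200 nucleotides) as a free term, and 79.3% to 84.9% of values fell within 0.15 reads of a whole number. Coordinates, GC content and neighbours come from GENCODE M21 (51596 of 51789 identifiers). Named genes were, in each comparison, the called repair genes (the 20 largest where more passed), or the 6 of lowest p where fewer than 6 passed, with those without overlap between treatments, and always Atm, Atr, Brca1, H2afx, Parp2 and Mgmt. Of the wider list, the 3 largest rises and falls were named. Other genes among the 52 are named to account for each of them. The genes, lists and tests were chosen with earlier results of these data known.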

Additional observations from a re-analysis of the deposited data

Results flagged for a closer look

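Among 30 named repair genes, 120 groups of 5 libraries were examined for a library far from the rest of its group by Dixon's criterion, which chance meets in about 1 in 20 groups. It was met 6 times. Atr read 6.54 scaled FPKM in AF MDL-800 library 29, where the next library read 7.39. Rnf168 read 15.6 in NP vehicle library 3 (next 12.5), and Xrcc6 read 15.6 in NP vehicle library 2 (next 13.0). Nhej1 read 4.54 in AF vehicle library 13, against 2.66 for the next. Ddb1 read 207 in NP MDL-800 library 19, below the next at 223, and 160 in AF MDL-800 library 25, above the next at 118. Library 25 also had the highest sum of the NP marker list in its group (7510 scaled FPKM). In AF vehicle, library 9 was highest for both Ddb1 (169) and that list (15100). Whether the 2 are related was not tested.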

How the results depend on the processing

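Over all alternatives, 0 of the 52 genes were called in either treatment comparison or in the difference between them. Between the tissues, quantile normalization gave 22 higher and 11 lower in vehicle (38.5% and 25.6% of all genes) and 19 and 13 with MDL-800 (41.5% and 27.7%), where 5 and 19 and 5 and 25 were called. Leaving out a library gave 3 to 5 higher and 17 to 20 lower in vehicle, and 5 to 6 and 23 to 25 with MDL-800. Directions that reversed were of small differences: H2afx in NP with treatment was -0.17 after removal of the GC trend. Mgmt between the tissues in vehicle was 0.33 with quantile normalization. The difference of treatment effects of Brca1 was 0.03 with quantile normalization, 0.08 with a pseudocount of 0.1 and 0.04 after removal of the GC trend. Leaving out a library gave -0.22 to 0.22 for that value, -0.37 to 0.17 for the same value of H2afx, -0.09 to 0.35 for Brca1 and -0.09 to 0.45 for H2afx in AF with treatment, and -0.10 to 0.31 for H2afx in NP. The cause was not tested. Of the wider list, the 1 gene called in NP with treatment became 0 without scaling, without the filter and in the joint fit, and 0 to 2 when a library was left out.

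The replicate numbers of the sample titles are not shared between groups. A second number in the column headers recurs in NP and AF, for 5 pairs in vehicle and 3 with MDL-800, and its meaning is not stated. Deviations of same-numbered libraries correlated at -0.18 to 0.29, not all above 0.1. With so few pairs, and from different tissues, this cannot tell whether such libraries came from the same mouse. The main tests did not use the number to pair libraries. With that number as a block, chosen after seeing the data, 4 genes were higher and 17 lower in vehicle, and 2 and 19 with MDL-800, where only the 6 paired libraries entered. The shares over all genes were not taken for these fits or for those without a library. Their counts therefore cannot be set against all genes. Depth limits Nhej1, Palb2, Mgmt and Xpa most, whose lowest libraries rest on about 14, 32, 34 and 35 fragments.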
